A study of Mus musculus with 88 samples.

Results

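Cortical layer marker genes are genes whose transcripts mark excitatory neurons of particular depths of the neocortex. The 9 genes described here were chosen by name as known layer markers and found in each region's table through their Ensembl identifiers in the GRCm38 annotation. The 3 upper layer genes were Cux2, Rasgrf2 and Rorb, and the 6 deep layer genes were Fezf2, Etv1, Crym, Tle4, Foxp2 and Tbr1. All 9 were present among the 18946 genes of the medial prefrontal cortex (mPFC), the 17515 genes tested in the bed nucleus of the stria terminalis (BNST) and the 19559 genes of the ventral hippocampus (vHPC).

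The study compared male mice of the inbred strains labelled C57BL/6Crl (B6; C57BL/6NCrl in the study's methods) and DBA/2Crl (D2; DBA/2NCrl) after chronic social defeat stress (CSDS), in which a mouse is repeatedly attacked by an aggressive mouse. All mice were 8 weeks old at dissection, which took place 6 to 8 days after the last defeat. During the defeat period controls shared a cage with another control mouse, without physical contact, and were not attacked. From the day after the last defeat all mice were housed singly until dissection. Defeated mice were classed as susceptible or resilient by how much they approached an unfamiliar mouse, relative to controls of their own strain. The 88 ribosomal RNA-depleted libraries came from 32 mPFC samples (B6: 6 control, 6 resilient and 6 susceptible; D2: 6 control and 8 susceptible), 28 BNST samples (B6: 5 of each phenotype; D2: 5 control, 3 resilient and 5 susceptible) and 28 vHPC samples (B6: 6 control, 8 resilient and 3 susceptible; D2: 6 control and 5 susceptible). Each was from a single mouse, and the mPFC and the vHPC were both sampled in 7 mice. The p values therefore rest on the spread between mice, not between repeat libraries of a mouse. For the mPFC and vHPC, this is the spread that was left after the authors' adjustment of the values, described below. The fits by group made no allowance for that adjustment, and how far it narrowed the spread was not tested.

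The neocortex is built of sheets of neurons that are born in sequence and project to different targets. Upper layer neurons mostly connect cortical areas with each other, layer 5 neurons send axons to the striatum, brainstem and spinal cord, and layer 6 neurons project largely to the thalamus. Many of the transcription factors that set these fates stay on in adult neurons. In bulk tissue, fewer neurons of a layer and less RNA per neuron cannot be told apart. Several of the genes are also used outside the cortex: Foxp2 in striatal and thalamic neurons, Rorb in thalamic neurons and Crym in hippocampal and striatal neurons.

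The genes lie on separate chromosomes except for Rorb and Tle4, which are both on chromosome 19. In GRCm38 (GENCODE M21), Cux2, a homeodomain factor of layers 2 to 4, is at chr5:121856366-122050102 on the minus strand, and Etv1, an ETS factor of layer 5, at chr12:38779380-38870484 on the plus strand. Rorb, an orphan nuclear receptor of layer 4, is at chr19:18930605-19111196 on the minus strand. The others are Rasgrf2 (chr13:91880400-92131656, minus), Fezf2 (chr14:12342094-12348189, minus), Crym (chr7:120186380-120202111, minus), Tle4 (chr19:14448150-14598051, minus), Foxp2 (chr6:14901349-15441977, plus) and Tbr1 (chr2:61802930-61814114, plus). The 250 bases before a RefSeq transcription start of Etv1 (chr12:38779832-38780081, plus strand) and of Rorb (chr19:19111197-19111446, minus strand) are shown because Etv1 differed between strains in the mPFC and Rorb in the vHPC, and because neither stretch overlaps an annotated exon. They are RefSeq sequence of GRCm38.p6, a C57BL/6J genome, and capitals mark the GC box.
Etv1: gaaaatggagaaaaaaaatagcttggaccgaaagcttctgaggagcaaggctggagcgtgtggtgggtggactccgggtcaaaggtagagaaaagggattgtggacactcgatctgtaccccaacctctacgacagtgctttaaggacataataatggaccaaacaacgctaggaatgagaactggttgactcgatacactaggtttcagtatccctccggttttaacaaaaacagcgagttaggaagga
Rorb: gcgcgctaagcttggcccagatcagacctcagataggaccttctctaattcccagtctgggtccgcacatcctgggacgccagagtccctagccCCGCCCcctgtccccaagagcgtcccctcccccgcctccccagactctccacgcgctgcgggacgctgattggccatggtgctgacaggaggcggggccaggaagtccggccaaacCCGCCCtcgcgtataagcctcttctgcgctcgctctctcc
4 motifs were searched on both strands: the GC box GGGCGG, the TATA box TATAAA, the E-box CAGATG and the ETS site CCGGAA. The Rorb stretch held 2 GC boxes, on the strand opposite to the letters given, and the Etv1 stretch held none of the 4 motifs. Of the 32851 promoters of the same length, 32.74% held the GC box, 12.37% the TATA box, 14.44% the E-box and 12.03% the ETS site. The Etv1 stretch had a GC content of 46.4% and the Rorb stretch of 66%, against a median of 52.4% over all promoters.

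The BNST libraries held 11825757 to 25793910 counts. The deposited tables of the other regions hold log2 CPM, that is read counts scaled to the size of the library, which carry no depth. The study also lists the number of analyzed reads, which was not used here. In the mPFC, the library of B6 susceptible replicate 4 stood apart, with the lowest summed level of the 6 excitatory neuron markers (965 CPM against 1193 to 1781 in the other 31 libraries) and the highest of the 6 olfactory bulb markers (187 CPM). Its values are given separately where they decide a result. Markers of neighbouring tissue also varied, and the mPFC sums ranged from 134 to 459 CPM for 8 striatal neuron markers and from 4.72 to 187 CPM for the olfactory bulb markers.

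All 9 genes were expressed in the mPFC, with mean levels between percentile 59.3 (Fezf2) and percentile 93.2 (Rasgrf2) of the genes in the table. Compared per kilobase (kb) of exon, Rasgrf2, a Ras exchange factor of layers 2 and 3, was the most abundant in control B6 mice with 17.5 CPM per kb, followed by Crym, which encodes the thyroid hormone-binding protein crystallin mu, with 16.0 CPM per kb. Tle4, a corepressor of layer 6, had 12.9, Rorb 12.6 and Tbr1, a T-box factor of layer 6, 10.93 CPM per kb. Cux2 and the layer 5 factor Fezf2 followed with 7.39 and 7.34 CPM per kb, and Foxp2, a forkhead factor of layer 6, and Etv1 were lowest with 3.24 and 2.95 CPM per kb. On the log2 scale, the neighbours Rasgrf2 and Crym (4.13 ± 0.13 and 4.002 ± 0.19, SD, n = 6), Tle4 and Rorb (3.69 ± 0.09 and 3.65 ± 0.16), Cux2 and Fezf2 (2.89 ± 0.16 and 2.88 ± 0.22), and Foxp2 and Etv1 (1.695 ± 0.20 and 1.56 ± 0.14) differed by less than the sum of their SDs, and so did Rorb and Tbr1 (3.45 ± 0.30). Crym and Tle4, Tbr1 and Cux2, and Fezf2 and Foxp2 lay further apart than that.

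The tables of the regions were made with different library kits and normalized separately, so levels are set side by side without a test. In control B6 mice Crym had 112 CPM per kb in vHPC, 16.0 in mPFC and 11.0 in BNST tissue. Fezf2 had 7.34 in the mPFC, 5.42 in the vHPC and 0.815 in the BNST, and Tbr1 10.93, 2.94 and 2.25. Foxp2 was highest in the BNST, with 8.139 CPM per kb there, 3.24 in the mPFC and 0.308 in the vHPC. Tle4 ranged from 12.9 CPM per kb (mPFC) through 14.6 (vHPC) to 19.8 (BNST). The plot of levels per kb shows that the upper layer genes were highest in the mPFC, whereas the deep layer genes did not share 1 regional order.

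**Figure D1:**
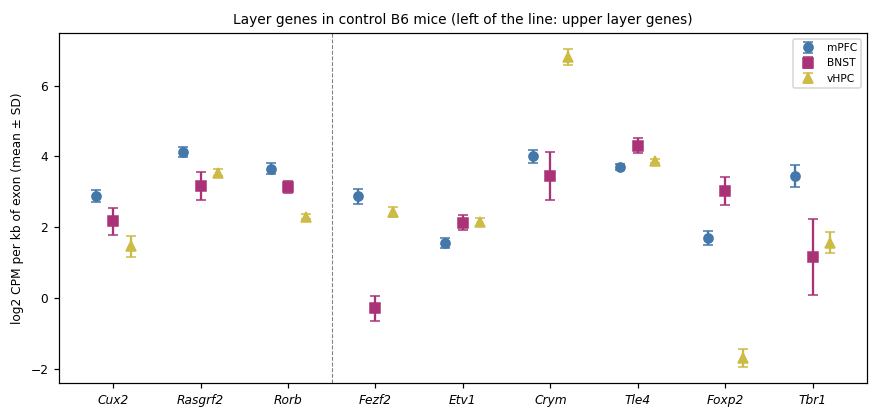
Level of the 9 layer genes in control B6 mice as log2 CPM per kb of exon, with points for the mean and bars for the SD over 6 mPFC, 5 BNST and 6 vHPC mice. Crym in the vHPC (112 CPM per kb) is the highest value and Foxp2 in the vHPC (0.308 CPM per kb) the lowest, and the 3 upper layer genes are highest in the mPFC.

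To ask whether the strains differ in layer gene expression without stress, D2 and B6 controls were compared in the mPFC. Cux2 and Etv1 were higher in D2 mice, Cux2 by 0.36 and Etv1 by 0.34 on the log2 scale, and the other 7 genes did not pass the threshold. Cux2 lay between 6.03 and 6.42 log2 CPM in the 6 B6 controls (median 6.20) and between 6.381 and 6.74 in the 6 D2 controls (median 6.62). All D2 values were above the B6 mean, and 4 of the 6 D2 mice exceeded every B6 control, so the groups overlapped. The difference was 0.36 ± 0.08 (SE) with an adjusted p of 0.000606 (limma, Benjamini-Hochberg adjustment over all genes). Etv1 lay between 5.13 and 5.44 in B6 controls (median 5.29) and between 5.35 and 5.78 in D2 controls (median 5.67). Again all 6 D2 mice were above the B6 mean, and 5 exceeded every B6 control. Its difference was 0.34 ± 0.08 with an adjusted p of 0.00173.

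The 2 genes called of 9, both higher in D2, stand against 27.8% of all genes called in this comparison, 13.4% higher and 14.4% lower in D2. The median difference of the 9 genes was 0.17, of the 3 upper layer genes 0.17 and of the 6 deep layer genes 0.07, against 0.0016 over all genes. Rasgrf2 (0.17 ± 0.07, adjusted p = 0.0558, limma) and Tbr1 (0.40 ± 0.17, adjusted p = 0.0864) had positive differences that did not pass the threshold, although their unadjusted p values were under 0.05 (4 of 9 genes, against 38.6% of all genes). Crym had the most negative difference (-0.31 ± 0.16, adjusted p = 0.143), with 5.55 to 6.01 log2 CPM in B6 controls (median 5.77) and 5.21 to 5.82 in D2 controls (median 5.38). Rorb and Tle4 differed by -0.03 and -0.04, with 95% intervals of -0.25 to 0.18 and -0.21 to 0.14.

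Within the 4 library preparation sets that held controls of both strains, each with 2 to 4 control mice in all, Etv1 was higher in D2 in all 4, by 0.20 to 0.50. Cux2 was higher in 3 sets, by 0.34 to 0.56, and differed by -0.03 in a set with a single mouse of each strain (6.381 in D2 and 6.42 in B6). Oligodendrocyte markers moved with the strain: all 6 were lower in D2 controls at an adjusted p under 0.05, with a summed level of 976 to 1432 CPM against 1471 to 2803 CPM in B6 controls. The 8 striatal markers summed to 136 to 294 CPM in D2 and 158 to 441 CPM in B6 controls, 2 of them passing the threshold and both lower in D2. Of 6 markers each, 3 microglia (sums of 154 to 174 CPM in D2 and 174 to 199 in B6) and 3 astrocyte markers (1170 to 1373 and 1330 to 1506 CPM) were lower in D2, and 1 excitatory neuron (1328 to 1781 and 1193 to 1639 CPM) and 2 inhibitory neuron markers (509 to 693 and 452 to 629 CPM) were higher. The part of these markers in the differences of Cux2 and Etv1 was not tested. Without the 8 libraries with the highest mean level of striatal markers, 3 of them B6 controls, the differences were 0.28 for Cux2 (adjusted p = 0.0271, limma) and 0.32 for Etv1 (adjusted p = 0.00718). These libraries were chosen by striatal markers alone and after the data had been seen, so this is no test of the oligodendrocyte or other markers.

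**Figure D2:**
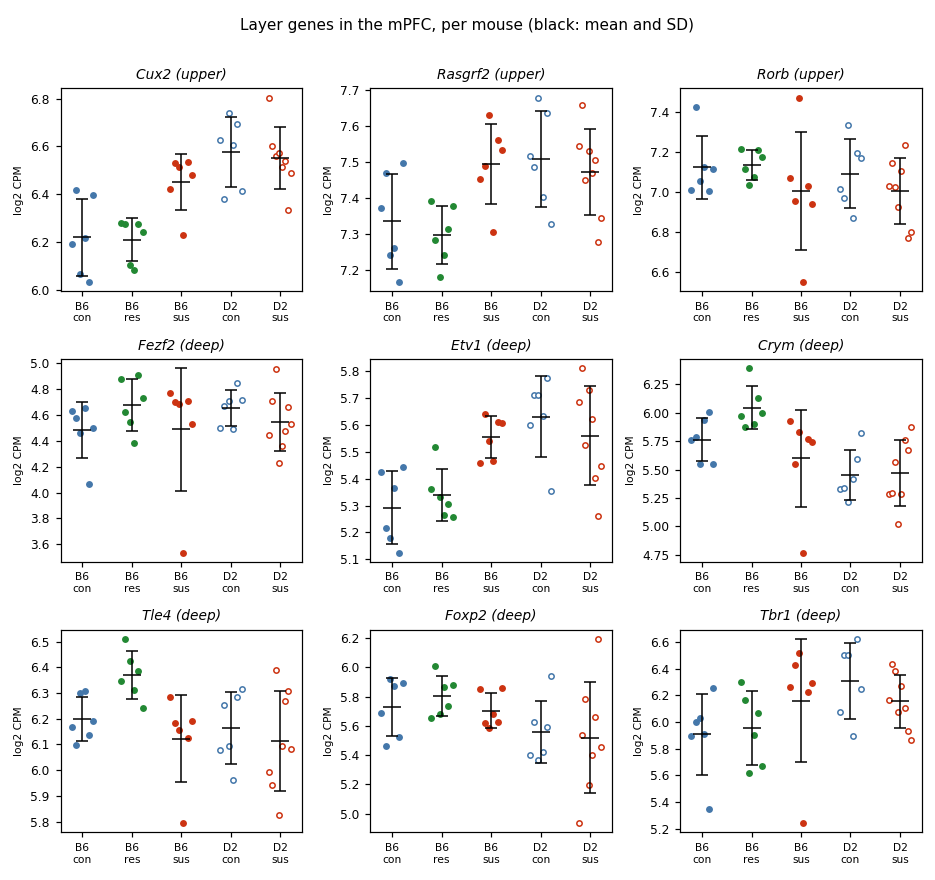
Log2 CPM of the 9 layer genes in each mPFC library, by strain and phenotype (con, control; res, resilient; sus, susceptible), with filled points for B6, open points for D2, and black lines for the mean and SD of 6 mice (8 in D2 sus). Cux2 and Etv1 in control D2 mice (means 6.58 and 5.63) sit above control B6 mice (means 6.22 and 5.29), and B6 susceptible replicate 4 is the lowest point of Fezf2, Crym, Tle4 and Tbr1.

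In susceptible B6 mice no layer gene passed the threshold against controls (0 of 9, against 2.22% of all genes), but 3 had an unadjusted p under 0.05 (18.2% of all genes), each with a positive difference. Etv1 lay between 5.46 and 5.64 log2 CPM in susceptible mice (median 5.57), so that each of the 6 was above all 6 controls (5.13 to 5.44). How many of all genes were separated in this way was not counted. The difference was 0.26 ± 0.08 with an adjusted p of 0.0725 (limma). Cux2 lay between 6.23 and 6.53 in susceptible mice (median 6.497), and 5 of 6 were above every control, the exception being replicate 4. Its difference was 0.23 ± 0.08 (adjusted p = 0.0905). Rasgrf2 was 7.167 to 7.498 in controls (median 7.32) and 7.31 to 7.63 in susceptible mice (median 7.51), a difference of 0.16 ± 0.07 (adjusted p = 0.197) with overlapping groups.

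The other genes had intervals that spanned 0. Fezf2 differed by 0.01 (95% interval -0.31 to 0.32), Foxp2 by -0.02 (-0.30 to 0.26), Tle4 by -0.08 (-0.25 to 0.10), Rorb by -0.12 (-0.34 to 0.10), Crym by -0.17 (-0.49 to 0.16) and Tbr1 by 0.25 (-0.10 to 0.61). The spread behind these intervals was estimated over all mPFC groups together. In replicate 4, Fezf2 had 3.54, Crym 4.77 and Tbr1 5.24 log2 CPM. In the other 5 susceptible mice Fezf2 was at least 4.53, Crym at least 5.55 and Tbr1 at least 6.22, and without replicate 4 the differences were 0.20 for Fezf2, -0.00046 for Crym, 0.44 for Tbr1, -0.03 for Rorb and -0.01 for Tle4. Without replicate 4, Cux2 passed the threshold (0.28, adjusted p = 0.0381). Without B6 control replicate 6, Cux2 and Etv1 both passed (adjusted p = 0.0428 for Etv1, limma). That mouse was the only control that shared its ID prefix, the part before the point, with most of the susceptible mice. No resilient B6 mouse had this prefix. Leaving that control out therefore also removes the only match in prefix, and the part of the prefix in these calls was not tested.

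Tissue markers and the mouse ID prefix, whose meaning is not stated, also moved with this comparison. All 6 oligodendrocyte markers were lower in susceptible B6 mice at an adjusted p under 0.05 (sums of 1059 to 1628 CPM against 1471 to 2803 in controls), and the striatal marker sums were 141 to 193 CPM in susceptible and 158 to 441 CPM in control mice. Without the 8 libraries highest in striatal markers, which were 3 B6 controls, 3 resilient B6 mice and 2 D2 mice, the differences were 0.12 for Cux2, 0.19 for Etv1 and 0.05 for Rasgrf2. With the prefix of the mouse ID in the model they were 0.11, 0.19 and 0.04. Within the library set of replicate 4, which held a single control, Cux2 differed by 0.01, and in the other 3 shared sets by 0.12 to 0.43.

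In resilient B6 mice 0 of 9 genes passed the threshold (0% of all genes, with 3.86% at an unadjusted p under 0.05), and none of the 9 had an unadjusted p under 0.05. The 6 deep layer genes all had positive differences, from 0.05 for Etv1 to 0.28 for Crym, with a median of 0.12, whereas the upper layer genes ranged from -0.04 to 0.01. Crym lay between 5.88 and 6.392 log2 CPM in resilient mice (median 5.98), with all 6 above the control mean, but the groups overlapped and the adjusted p was 0.999 (limma). Tle4 lay between 6.24 and 6.51 in resilient and between 6.10 and 6.31 in control mice, a difference of 0.17 ± 0.08 (adjusted p = 0.999).

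Set against resilient mice directly, susceptible B6 mice again had 0 of 9 genes past the threshold (2.02% of all genes), and 5 genes had an unadjusted p under 0.05 (19.6% of all genes). Cux2 and Rasgrf2 were on the higher side, with differences of 0.24 (adjusted p = 0.0768) and 0.20 (adjusted p = 0.106), and so was Etv1 with 0.21 (adjusted p = 0.131). Tle4 (-0.25, adjusted p = 0.105) and Crym (-0.45, adjusted p = 0.113) were on the lower side. Without replicate 4 the difference of Crym was -0.28 (adjusted p = 0.253) and that of Tle4 -0.18 (adjusted p = 0.222, limma). The 3 deep layer genes among these 5 thus did not share a direction. For Crym and Tle4, all 6 susceptible mice were below the mean of the resilient mice, with overlapping groups. Of the 6 oligodendrocyte markers, 4 were lower in susceptible than in resilient mice, and their part was not tested.

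In susceptible D2 mice no layer gene passed the threshold (0 of 9, 0% of all genes, with 3.87% of all genes and 0 of the 9 at an unadjusted p under 0.05). Cux2 lay between 6.33 and 6.80 log2 CPM (median 6.55) and Etv1 between 5.26 and 5.81 (median 5.58), overlapping the D2 control ranges. The differences ran from -0.15 for Tbr1 to 0.02 for Crym. The 95% interval was -0.17 to 0.12 for Cux2 and -0.22 to 0.08 for Etv1. The strain by susceptibility interaction, which tests whether the 2 stress differences differ, passed the threshold for none of the 9 genes (0% of all genes). It was -0.26 ± 0.10 for Cux2 (adjusted p = 0.474, limma), -0.33 ± 0.11 for Etv1 (adjusted p = 0.441) and -0.20 ± 0.09 for Rasgrf2 (adjusted p = 0.526), the 3 of 9 genes with an unadjusted p under 0.05, against 9.32% of all genes.

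Between susceptible D2 and susceptible B6 mice, 0 of 9 layer genes passed the threshold (17.5% of all genes), and 0 of 9 had an unadjusted p under 0.05 (26.9% of all genes). Etv1 had medians of 5.58 in D2 and 5.57 in B6 susceptible mice and differed by 0.01 (95% interval -0.15 to 0.16). Cux2 differed by 0.10 (-0.05 to 0.24). The comparisons of susceptible B6 mice and of D2 controls share the same 6 B6 controls, which had the lowest mean of Etv1 among the 5 mPFC groups.

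**Figure D3:**
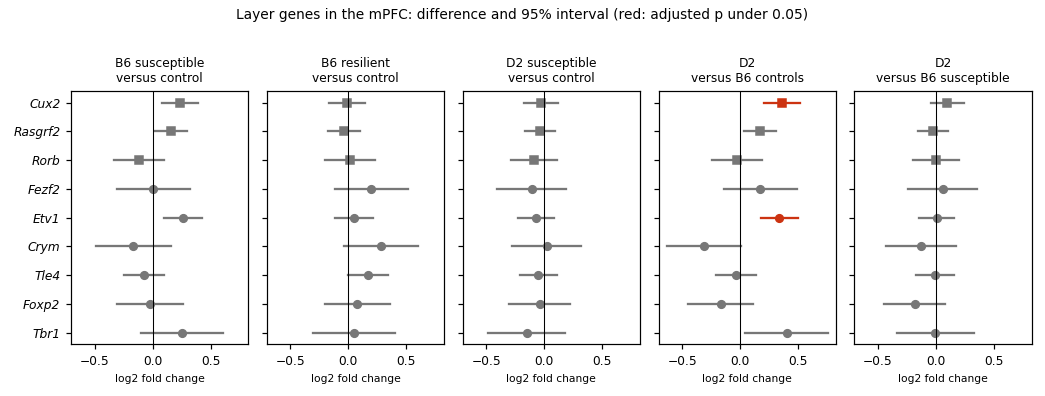
Log2 fold change of the 9 layer genes in 5 mPFC comparisons, with points for the limma estimate (squares for upper and circles for deep layer genes) and lines for the 95% interval, red where the adjusted p was under 0.05. The red symbols are Cux2 (0.36) and Etv1 (0.34) in D2 versus B6 controls, and the interval of every gene includes 0 in resilient B6 and in susceptible D2 mice.

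An index of layer balance was taken as the mean log2 CPM of the upper minus that of the deep layer genes in each mouse, and its differences are given with no test. In the mPFC it was 1.33 ± 0.14 (SD, n = 6) in control, 1.183 ± 0.07 in resilient and 1.38 ± 0.15 in susceptible B6 mice, and 1.43 ± 0.16 in control (n = 6) and 1.45 ± 0.20 in susceptible D2 mice (n = 8). Resilient mice had the lowest group mean, at 1.11 to 1.302, which was 0.15 below controls (pooled SD 0.11) and 0.20 below susceptible mice (pooled SD 0.12). Susceptible and control B6 mice overlapped, at 1.22 to 1.61 and 1.193 to 1.58, and differed by 0.05. The highest susceptible value was that of replicate 4, and without it susceptible mice differed from controls by 0.0018 and from resilient mice by 0.15. With the median in place of the mean of the genes, susceptible mice differed by -0.11 from controls and by 0.01 from resilient mice, so these differences depend on how the genes are averaged. Resilient mice differed from controls by -0.13 with the median. With z scores, each gene being scaled to its SD over the libraries of the region, the differences were 0.35, 0.98 and -0.62 in the same order.

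In the vHPC the index was 0.57 ± 0.08 in control (n = 6), 0.63 ± 0.09 in resilient (n = 8) and 0.72 ± 0.03 in susceptible B6 mice (n = 3), and 0.72 ± 0.06 in control (n = 6) and 0.79 ± 0.09 in susceptible D2 mice (n = 5). The 3 susceptible B6 mice (0.69 to 0.74) were above the 6 controls (0.49 to 0.68), a difference of 0.15 (pooled SD 0.06). With the median of the genes it was -0.22, and with z scores 0.84. D2 controls were 0.16 above B6 controls (pooled SD 0.07), a difference of -0.10 with the median and of 1.03 with z scores. In the BNST the difference between D2 and B6 controls was 0.64 (pooled SD 0.51), and 0.37 without D2 control replicate 5. Susceptible and resilient D2 mice of the BNST differed from D2 controls by -0.61 and -0.53, with pooled SDs of 0.60 and 0.47, and B6 mice from their controls by 0.01 (susceptible) and -0.26 (resilient). With the median of the genes these were -0.45 and -0.79 in D2 mice, and -0.43 and -0.36 in B6 mice. With z scores they were -0.88 and -0.87 in D2 mice, and -0.29 and 0.03 in B6 mice. Without B6 susceptible replicate 3 the index of susceptible B6 mice differed from controls by 0.27.

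Other genes of the same layers were read from longer lists, of which 11 of 12 upper layer, 10 of 10 layer 5 and 9 of 10 layer 6 genes were in the mPFC table. In D2 against B6 controls, where 13.4% of all genes were higher and 14.4% lower, 1 upper layer gene was higher and 1 lower: the LIM homeodomain gene Lhx2 (0.19 ± 0.07, adjusted p = 0.0470) and Whrn (-0.34 ± 0.11, adjusted p = 0.0245), which encodes a scaffold protein. In the layer 5 list 4 genes were higher and none lower, namely Pou3f1 (0.36), Deptor (0.37), Parm1 (0.31) and Slc17a8 (0.47), with a list median of 0.16. In the layer 6 list 2 were higher and 3 lower, among them the neurotensin receptor Ntsr1 (0.54 ± 0.13, adjusted p = 0.00236), Sox5 (0.21), the orphan receptor Nr4a2 (-0.61) and Cplx3 (-0.55), and the median was -0.26. The 5 called layer 6 genes thus changed in both directions. Between susceptible mice of the strains, where 7.81% of all genes were higher and 9.7% lower in D2, Rspo1 was higher (0.50), while Whrn (-0.46) and the kappa opioid receptor Oprk1 (-0.53) were lower. In the 4 stress comparisons of the mPFC, and in the interaction, 0 genes of the 3 lists passed in limma, with 0 to 4 genes of a list at an unadjusted p under 0.05.

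Across the 32 mPFC libraries, after subtracting group means, the layer genes did not vary as a single block. Cux2 varied with Rasgrf2 (r = 0.81), Rasgrf2 with Rorb (0.69), Fezf2 with Tbr1 (0.75), and Tle4 with Foxp2 (0.65) and Crym (0.64), whereas Cux2 and Foxp2 were inversely related (r = -0.49). The points share library preparation and tissue content: Tbr1 and Fezf2 varied with the mean of the excitatory markers (0.86 and 0.83), Rasgrf2 inversely with striatal markers (-0.71), and Rorb inversely with astrocyte markers (-0.86). Cux2 varied with excitatory (0.72) and inversely with oligodendrocyte (-0.64), striatal (-0.63) and astrocyte markers (-0.59), and Etv1 inversely with microglia markers (-0.72). Tbr1 also had the widest spread within groups (SD 0.31, percentile 93.2 among genes with a mean log2 CPM of at least 1), and Rasgrf2 the narrowest (SD 0.12, percentile 43.5). These correlations are descriptions across libraries.

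The genes most like each layer gene in these deviations were led by Cdh7 (r = 0.93), Cntn4 (0.92) and Pamr1 (0.90) for Rorb, by the adhesion receptor Adgra1 (0.93), Hrh1 (0.88) and the somatostatin receptor Sstr2 (0.88) for Fezf2, and by Synj1 (0.96), Fam217b (0.96) and Spock1 (0.96) for Tbr1. Cux2 was followed by the calcium channel gene Cacna1a (0.91), Cabin1 (0.88) and Arfgef2 (0.87), and Rasgrf2 by Raph1 (0.88), Atrn (0.87) and Lifr (0.85). For Etv1 they were Snap91 (0.83), Cadm2 (0.82) and Cpeb4 (0.80), for Crym Gap43 (0.90), Arpc5 (0.88) and Camkv (0.88), and for Tle4 Olfm3 (0.83), Gng12 (0.82) and Slc35f1 (0.81). Foxp2 had the weakest partners, Stk26 (0.76), Oprk1 (0.75) and Ryr3 (0.73). The ranking was over 15687 genes and 32 libraries.

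In the vHPC, 6 of the 9 layer genes were higher in susceptible than in control B6 mice and none was lower, against 20.5% of all genes called higher, 20.1% called lower and 40.6% called in all. Tbr1 was 4.97, 4.99 and 4.82 log2 CPM in the 3 susceptible mice and 3.63 to 4.43 in the 6 controls (median 3.94), a difference of 0.91 ± 0.23 (adjusted p = 0.00269, limma). Cux2 was 5.71, 5.504 and 5.57 in susceptible mice and 4.44 to 5.13 in controls (median 4.79), a difference of 0.81 ± 0.19 (adjusted p = 0.00190). Fezf2 was 4.69, 4.94 and 4.71 in susceptible mice and 3.82 to 4.22 in controls (median 4.09), a difference of 0.73 ± 0.12 (adjusted p = 5.371e-05). For each of these genes every susceptible mouse was above every control.

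Rorb (0.20, adjusted p = 0.00310), Rasgrf2 (0.19, adjusted p = 0.0300) and Tle4 (0.11, adjusted p = 0.0310) passed with smaller differences, and their groups did not overlap either. The share of all genes whose groups did not overlap was not counted, so the separation cannot be read as particular to the layer genes. The call of Tle4 was lost with quantile normalization (adjusted p = 0.0809), with only the compared groups in the fit (adjusted p = 0.0936), and without B6 control replicate 2 (adjusted p = 0.0672) or any 1 of the susceptible mice (adjusted p = 0.0701 to 0.0932, all limma). That of Rasgrf2 was lost with quantile normalization (adjusted p = 0.0616) and without B6 control replicate 1 or 5 or susceptible replicate 2 or 3 (adjusted p = 0.0525 to 0.131, limma). Crym, which was the most abundant of the 9 genes in the vHPC at 8.26 to 8.89 log2 CPM in controls, was at 8.23, 8.21 and 8.36 in susceptible mice, a difference of -0.30 ± 0.16 (adjusted p = 0.124). Etv1 (0.12, adjusted p = 0.169) and Foxp2 (-0.08, adjusted p = 0.708) did not pass. The median difference of the 9 genes was 0.19, against -0.01 over all genes. In the longer lists, against 20.5% of all genes higher and 20.1% lower, 4 upper layer genes were higher and 1 lower, 5 layer 5 genes were higher and 1 lower, and 6 layer 6 genes were higher and none lower. Examples are Otof (0.66), Mdga1 (0.54), Bcl11b (0.38), Ntsr1 (0.86) and Nr4a2 (0.85) on the higher side and Stard8 (-0.43) and Fam84b (-0.79) on the lower side.

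The library sets of the vHPC limit what these values can say. No set held both control B6 mice and susceptible B6 mice, or controls of both strains, so library set and group cannot be told apart from within-set values. The authors had already adjusted the deposited values for library and sequencing sets, and what that did to these differences is not known. With the library set also as a term in the model, 0 of the 9 genes passed. The differences were then 1.24 for Cux2, 0.83 for Fezf2 and 1.42 for Tbr1, with adjusted p values of 0.376, 0.372 and 0.385 (limma). Other markers moved too: 4 of 6 excitatory neuron markers were higher in susceptible B6 mice (sums of 2023 to 2387 CPM against 1640 to 1822), 3 of 6 hippocampal markers were lower (sums of 1036 to 1249 against 1081 to 1228 CPM), and all 6 oligodendrocyte markers were lower (1708 to 1955 against 2853 to 3243 CPM). Of 6 choroid plexus markers 3 were lower, with sums of 24.6 to 80.9 CPM in susceptible and 39.3 to 2127 CPM in control B6 mice. Of 6 markers each, 4 microglia and 4 astrocyte markers were lower, and 1 astrocyte and 2 inhibitory neuron markers higher. The part of these markers in the layer gene differences was not tested.

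D2 controls differed from B6 controls in the vHPC in 5 of 9 genes, 4 higher and 1 lower, against 59.3% of all genes called, 30.2% higher and 29.1% lower. Fezf2 lay between 4.75 and 5.07 log2 CPM in D2 controls (median 4.90), above all B6 controls, a difference of 0.86 ± 0.10 (adjusted p = 3.904e-08, limma). Cux2 (5.18 to 5.698, difference 0.69 ± 0.16), Tbr1 (4.47 to 4.82, difference 0.65 ± 0.19) and Rorb (5.94 to 6.07, difference 0.24 ± 0.04) were also above every B6 control in all 6 D2 controls. The share of all genes separated in this way was not counted. Crym was lower by 0.30 (-0.30 ± 0.13, adjusted p = 0.0469) with overlapping groups, at 8.03 to 8.38 log2 CPM in D2. Leaving out single mice moved the adjusted p of Crym between 0.0206 and 0.124 (limma), and the call held only without B6 control replicate 3 or 5 or D2 control replicate 1 or 5. The share of layer genes called was close to that of all genes, and the 6 B6 controls are the same as in the comparison of susceptible mice.

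All 6 oligodendrocyte (sums of 1159 to 1813 CPM in D2 and 2853 to 3243 in B6) and all 6 choroid plexus markers (23.0 to 539 and 39.3 to 2127 CPM) were lower in D2 controls of the vHPC. Of 6 markers each, 3 hippocampal (1042 to 1233 and 1081 to 1228 CPM), 5 microglia (medians of 197 and 257 CPM) and 5 astrocyte markers (1659 to 1760 and 2054 to 2198 CPM) were lower and 1 astrocyte marker higher. Of the neuron markers, 2 of 6 excitatory (1803 to 2094 and 1640 to 1822 CPM) and 4 of 6 inhibitory ones (522 to 581 and 452 to 496 CPM) were higher. The part of these markers in the layer gene differences was not tested. With the library set in the model 0 of the 9 genes passed there as well. In the longer lists, against 30.2% of all genes higher and 29.1% lower, 5 upper layer genes were higher and 4 lower, 3 layer 5 genes higher and 1 lower, and 6 layer 6 genes higher and 2 lower. They included Syt6 (0.87), Rprm (0.74), Otof (0.78), Mdga1 (0.71) and Sox5 (0.52) on the higher side and Stard8 (-0.74), Fam84b (-0.69) and Oprk1 (-0.65) on the lower side.

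**Figure D4:**
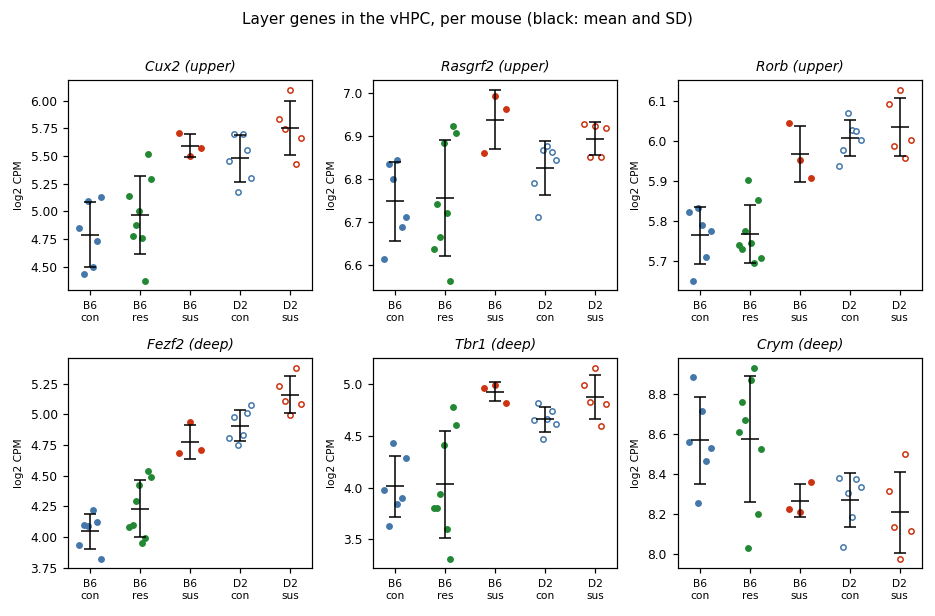
Log2 CPM of 6 layer genes in each vHPC library, by strain and phenotype, with filled points for B6, open points for D2, and black lines for the mean and SD. The 3 susceptible B6 mice sit above all 6 B6 controls for Cux2, Rasgrf2, Rorb, Fezf2 and Tbr1, and no library preparation set holds mice of both these groups.

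In resilient B6 mice of the vHPC 0 of 9 layer genes passed, against 4.94% of all genes called higher and 5.9% called lower (limma), and 0 had an unadjusted p under 0.05 (24.2% of all genes). The differences ran from -0.09 for Etv1 to 0.18 for Fezf2 (95% interval -0.0038 to 0.37). In the longer lists Stard8 (-0.21), Parm1 (-0.18) and Oprk1 (-0.30) were lower. In susceptible D2 mice 0 of 9 passed (4.28% of all genes), and Fezf2 alone had an unadjusted p under 0.05 (17.6% of all genes), with 5.00 to 5.38 log2 CPM against 4.75 to 5.07 in D2 controls and a difference of 0.25 ± 0.10 (adjusted p = 0.192, limma). No gene of the longer lists passed in that comparison. In the interaction 0 of 9 passed (0.782% of all genes), with 5 of 9 at an unadjusted p under 0.05 against 18.4% of all genes, and with values of -0.48 for Fezf2 (adjusted p = 0.147), -0.53 for Cux2 (adjusted p = 0.262) and -0.70 for Tbr1 (adjusted p = 0.225).

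In the BNST, which is not a layered cortex, no layer gene passed the threshold in any of the 6 comparisons. Over all genes 2.51% were called between D2 and B6 controls and 0% in the other 5 comparisons (edgeR quasi-likelihood test). DESeq2 and limma on voom values also called 0 of the 9 genes in each. What stood out was the spread between mice. Within groups the SD of Tbr1 was 1.43 (percentile 99.8 among genes with a mean log2 CPM of at least 1) and that of Fezf2 0.97 (percentile 98.4), whereas the SDs of Tle4 (0.29) and Etv1 (0.34) were below the median SD of 0.37.

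Tbr1 was 1.87, 5.87, 7.44, 2.65 and 7.141 log2 CPM in the 5 resilient B6 mice and 4.44, 5.08, 2.59, 2.99 and 3.02 in the 5 B6 controls. Fezf2 was 1.09, 3.11, 2.92, 0.86 and 4.26 in the same resilient mice and 1.24, 1.72, 1.22, 1.60 and 0.79 in the controls. Both genes were high in resilient replicates 2, 3 and 5 and not in replicates 1 and 4. Their differences were 2.31 ± 0.78 for Tbr1 (unadjusted p = 0.00656) and 1.64 ± 0.59 for Fezf2 (unadjusted p = 0.00958), with an adjusted p of 0.9999 (edgeR) for both. These 2 of 9 genes at an unadjusted p under 0.05 stand against 1.87% of all genes.

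The same libraries were high in markers of cortical excitatory neurons. Resilient B6 replicates 2, 3 and 5 and D2 susceptible replicate 1 had the 4 highest values of Tbr1 (5.87 to 7.44 log2 CPM) and the 4 highest means of the 6 excitatory neuron markers, from 6.74 to 8.01 log2 CPM, the next library having 5.69. Across the 28 libraries, group means removed, Tbr1 and Fezf2 varied with these markers (r = 0.79 and 0.87). Leaving out these libraries removes the highest values of Tbr1 by construction and leaves 2 resilient B6 mice, with 1.87 and 2.65 log2 CPM of Tbr1. The resilient difference was then -1.65 for Tbr1 and -0.37 for Fezf2, which is no test of the difference over all mice. The summed excitatory markers, which include the abundant Camk2a and Nrgn also made by striatal neurons, ranged from 496 to 5351 CPM over the BNST libraries, and striatal markers from 634 to 7133 CPM.

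**Figure D5:**
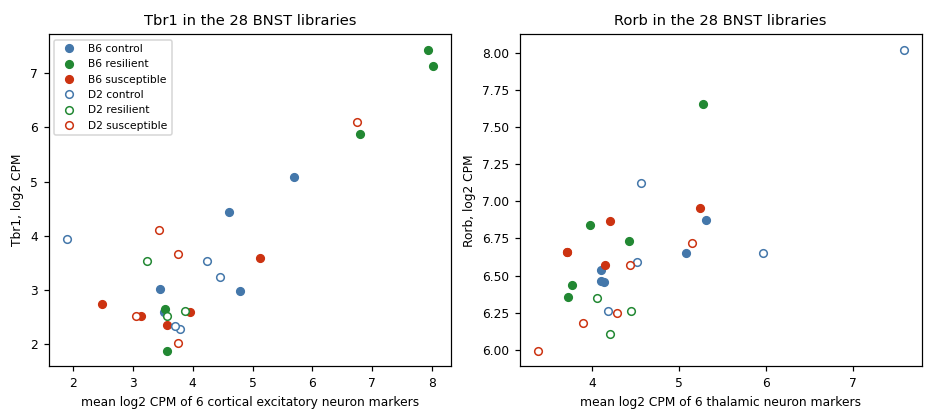
Log2 CPM of Tbr1 against the mean log2 CPM of 6 cortical excitatory neuron markers (left), and of Rorb against the mean of 6 thalamic neuron markers (right), in the 28 BNST libraries, with filled points for B6 and open points for D2 mice. The 4 libraries with the highest Tbr1 (5.87 to 7.44 log2 CPM) also have the 4 highest excitatory marker means (6.74 to 8.01), and the library with the highest Rorb (8.02) has the highest thalamic marker mean (7.58).

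Rorb varied with thalamic markers across the 28 libraries, group means removed (r = 0.82). This r includes D2 control replicate 5, the library highest in both, and is not given without it. In the mPFC Rorb was inversely related to the same markers (r = -0.70). In D2 controls of the BNST it was 6.26, 7.12, 6.65, 6.59 and 8.02 log2 CPM, the last in replicate 5, whose thalamic markers summed to 1408 CPM against 108 to 450 CPM in the other 27 libraries. The next highest Rorb value, 7.66, was in a resilient B6 mouse among those 27 libraries. In D2 susceptible mice Rorb was 6.18, 6.57, 6.25, 5.99 and 6.72, and in D2 resilient mice 6.26, 6.10 and 6.35. The differences from controls were -0.71 ± 0.25 in susceptible (adjusted p = 0.635, edgeR) and -0.83 ± 0.30 in resilient D2 mice (adjusted p = 0.858). Without D2 control replicate 5 the difference was -0.32 in susceptible and -0.45 in resilient mice, but this removes the highest Rorb value by construction. In that library Crym (2.91) and Tle4 (5.72) were the lowest of all 28, and Cux2 (6.92) was the highest.

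In the remaining BNST comparisons, Fezf2 had a difference of 1.51 ± 0.61 in susceptible D2 mice (adjusted p = 0.698, edgeR), at 3.32, 1.48, 1.52, 1.01 and 0.70 log2 CPM against 1.28, -0.07, 0.40, 0.29 and -0.25 in D2 controls, and of 0.79 without susceptible replicate 1. Crym had a difference of 1.21 ± 0.43 in resilient D2 mice (adjusted p = 0.858, edgeR), where all 3 were above every D2 control. How many of all genes were separated in this way was not counted, so the separation cannot be read as particular to Crym. Between D2 and B6 controls Crym differed by -0.91 ± 0.39 (adjusted p = 0.294). It was the single one of 9 genes with an unadjusted p under 0.05 there (13.4% of all genes). Without D2 control replicate 5, the lowest library in Crym, this strain difference was -0.69 ± 0.38 (adjusted p = 0.462, edgeR). The same library was among the D2 controls of the resilient comparison, whose difference without it is not given. In resilient D2 mice 2 of 9 genes had an unadjusted p under 0.05 (5.44% of all genes), and in susceptible D2 mice 2 of 9 (6.03%). In susceptible B6 mice none of the 9 had an unadjusted p under 0.05 (6.37% of all genes), with differences from -1.12 ± 0.78 for Tbr1 to 0.42 ± 0.21 for Etv1. In the interaction 4 of 9 genes had an unadjusted p under 0.05 (11.4% of all genes), namely Tbr1 (2.35), Fezf2 (1.77), Rorb (-0.85) and Etv1 (-0.70), with adjusted p values from 0.333 to 0.429. Without D2 susceptible replicate 1 the interaction was 1.23 for Tbr1 and 1.05 for Fezf2, and without D2 control replicate 5 it was -0.47 for Rorb. None of the 12 upper layer, 10 layer 5 and 10 layer 6 genes of the longer lists passed in the BNST (edgeR), with 0 to 3 genes of a list at an unadjusted p under 0.05.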

How the data were processed

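RNA from mPFC, BNST and vHPC samples of single mice was sequenced after ribosomal RNA depletion. The authors trimmed reads, removed duplicates, used STAR for alignment to GRCm38 and HTSeq 0.6.1 for counting over exons. The deposited BNST table holds read counts. The deposited mPFC and vHPC tables hold log2 CPM, which the authors had filtered (1 CPM or more in 6 or more samples), transformed with voom and adjusted for library sets with ComBat, in the vHPC also for sequencing sets. Their library totals were not used here, so the counting error of a value was not estimated. Groups came from the sample labels, and preparation sets and mouse IDs from the sample list of the study. No column was duplicated.

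The mPFC and vHPC values were fitted with limma 3.58.1 (robust empirical Bayes) and the BNST counts with edgeR 4.0.16 (robust quasi-likelihood, TMM factors from 0.656 to 1.27, genes reaching 1 CPM in 6 or more libraries), in R 4.3.3, with a mean per group and all groups of a region together. BNST levels are TMM-scaled log2 CPM with a prior count of 0.5. Two-sided p values were adjusted over all genes (Benjamini-Hochberg), and the threshold was 0.05. The SE of an edgeR difference was its size divided by the square root of F. The procedures were tested on simulated data with 200 changed genes. Differences are on the log2 scale, the first group named minus the second.

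Layer indices, correlations and marker sums were computed in Python 3.11.15 with pandas 2.3.3. Marker sums are sums of CPM over the list. The list name Ctgf was matched to Ccn2 through RefSeq synonyms. Of the 9 genes, 7 had a RefSeq promoter entry. Genes named were the 9 layer genes in all comparisons, for each the 3 genes with the highest r, of the longer lists at most the 4 with the smallest adjusted p per list and comparison, and markers as needed. The members and lists were chosen with earlier results of these data known.

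Alternatives were DESeq2 1.42.0, other scalings and filters, limma on voom values, log2(CPM + 1), empirical Bayes with a trend or not robust, normalization by quantiles, covariates (library set, sequencing set, mouse ID prefix), only the compared groups, and leaving out each mouse. Leaving out the libraries highest in striatal (mPFC) or excitatory (BNST) markers, and each mouse from the layer index, was added after the data had been seen.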

Additional observations from a re-analysis of the deposited data

Results flagged for a closer look

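Of 126 gene and group combinations with 4 to 10 mice, 9 held a value apart from the others of its group by Dixon's test, in 4 libraries. Chance flags about 1 in 20 such groups. In the mPFC, the library of B6 susceptible replicate 4 held the lowest values of Cux2 (6.23 log2 CPM, next 6.42), Fezf2 (3.54, next 4.53), Crym (4.77, next 5.55), Tle4 (5.79, next 6.13) and Tbr1 (5.24, next 6.22). Rorb was high in B6 control replicate 2 (7.43, next 7.13), and Fezf2 was low in B6 control replicate 5 (4.07, next 4.46). In the BNST, B6 susceptible replicate 3 held the lowest values of Rasgrf2 (4.98, next 6.18) and Etv1 (5.34, next 6.42) of its group, and its striatal markers summed to 7133 CPM, the highest of the 28 libraries.

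Etv1 in the vHPC differed by 0.12 in susceptible B6 mice and by -0.09 in susceptible D2 mice, each mouse lying on that side of its strain's control mean. The interaction was -0.21 with an adjusted p of 0.227 (limma).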

How the results depend on the processing

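Under the alternatives, 385 counts of called layer genes stayed within 1.5 times the reported count, 6 were higher and 2 lower. The reported count was above 0 only for D2 against B6 controls of the mPFC and vHPC and for susceptible against control B6 mice of the vHPC. Most of the 385 were thus counts of 0 that stayed 0, and they say little about how stable the calls are. A count could also stay within that range while the call of a single gene was lost. With quantile normalization, 1 gene (Rasgrf2) passed between susceptible and resilient B6 mice in the mPFC. With library totals without TMM factors, 2 genes (Fezf2 and Tle4) passed in the BNST interaction, where the median of all genes moved to 0.53. With the library preparation set as a covariate, 0 genes passed in the vHPC for susceptible B6 mice and for D2 against B6 controls. With only the compared groups in the fit, 2 genes (Fezf2 and Tbr1) passed in the vHPC interaction. Leaving out single mice gave 0 to 2 genes for susceptible against control B6 mice of the mPFC, with 2 (Cux2 and Etv1) without B6 control replicate 6 and 1 (Cux2) without B6 susceptible replicate 4. It gave 2 to 4 genes for D2 against B6 controls of the mPFC, with 4 (Cux2, Rasgrf2, Etv1 and Tbr1) without D2 control replicate 4. In the vHPC it gave 4 to 6 genes for susceptible B6 mice and 4 to 5 for D2 against B6 controls. The cause of these changes was not tested. The mouse ID prefix could not be fitted as a covariate for the strain comparisons of controls in the 3 regions, of susceptible mice in the mPFC, or for resilient D2 mice in the BNST, so these were not run. No paired analysis was possible because each comparison was within a region, where every mouse gave 1 library and was in 1 phenotype and strain group, and the replicate numbers were only names. The 7 mice with both an mPFC and a vHPC library link the regions, which were not compared by a test. The depth of the mPFC and vHPC libraries was not used here, and 3 mice per group limit the susceptible B6 mice of the vHPC and the resilient D2 mice of the BNST.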
